A study of Mus musculus with 96 samples.

Results

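Slc5a7, Unc79, Syp and Snhg11 are genes best known from nerve cells that were measured here in the fat, liver and muscle of mice on a high-fat diet. They were chosen by their HFD minus SBD difference in signal in the 6 fat tissues, as seen in an earlier account of these same arrays (HFD, high-fat diet; SBD, standard breeding diet), so their diet differences in fat are given as a description with no test. All probes carrying 1 of the 4 symbols were taken: 5 probes of 46632 on the array, and 4 genes of 17711 named ones, with 1 probe each for Slc5a7, Unc79 and Syp and 2 probes for Snhg11, called probe A and probe B.

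The sex of the mice is not given in the sources used here; all mice were of the inbred strain DBA/2J, 12 weeks old, fed for 6 weeks and fasted for 2 hours before dissection. The groups were 8 tissues of mice on the HFD and the same 8 tissues of mice on the SBD, with 6 arrays each, so 16 groups and 96 arrays. The tissues were brown fat, gonadal, inguinal, mesenteric, perirenal and subcutaneous fat, liver and skeletal muscle. The study's text describes a subcutaneous pad that is mainly inguinal and a gluteal pad, while the labels read inguinal and subcutaneous; which label is which pad is not stated. Replicates are labelled biological, and no label ties a replicate number in 1 tissue to the same mouse in another.

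Slc5a7 encodes the high-affinity choline transporter that brings choline back into cholinergic nerve endings for the making of acetylcholine. Unc79 encodes a large subunit of the NALCN channel complex, which carries the sodium leak that sets the resting excitability of neurons. Syp encodes synaptophysin, an abundant membrane protein of synaptic vesicles. Snhg11 is a long noncoding RNA, a host gene of small nucleolar RNAs, that is abundant in brain. Fat is supplied by sympathetic and sensory nerve fibres whose cell bodies lie in ganglia outside the depot. In whole tissue, a change in the number of cells of a type and a change in RNA per cell cannot be told apart.

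The promoters of the 4 genes are shown because 3 of the genes were higher and 1 was lower in fat on the HFD. Each runs from 250 bases before to 50 bases after the start that the RefSeq table (assembly GRCm38.p6) uses for the gene, 5′ to 3′ on the gene's strand, with capitals marking the motifs found. They lie at chr17:54298985-54299284 on the minus strand for Slc5a7, and on the plus strand at chr12:102948609-102948908 for Unc79, chrX:7638330-7638629 for Syp and chr2:158375463-158375762 for Snhg11. For Unc79 the start used lies 1476 bases inside the annotated gene, so its window is not that of the outermost start.
Slc5a7: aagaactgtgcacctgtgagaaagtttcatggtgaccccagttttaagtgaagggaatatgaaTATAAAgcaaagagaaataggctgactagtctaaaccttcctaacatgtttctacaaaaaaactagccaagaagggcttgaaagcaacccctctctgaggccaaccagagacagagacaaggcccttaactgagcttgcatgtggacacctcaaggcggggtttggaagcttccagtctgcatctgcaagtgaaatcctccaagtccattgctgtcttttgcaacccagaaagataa
Unc79: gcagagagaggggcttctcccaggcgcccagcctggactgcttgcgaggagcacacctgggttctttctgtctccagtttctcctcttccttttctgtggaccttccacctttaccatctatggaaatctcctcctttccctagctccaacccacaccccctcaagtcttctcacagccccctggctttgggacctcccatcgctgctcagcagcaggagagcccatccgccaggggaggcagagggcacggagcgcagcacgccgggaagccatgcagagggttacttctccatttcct
Syp: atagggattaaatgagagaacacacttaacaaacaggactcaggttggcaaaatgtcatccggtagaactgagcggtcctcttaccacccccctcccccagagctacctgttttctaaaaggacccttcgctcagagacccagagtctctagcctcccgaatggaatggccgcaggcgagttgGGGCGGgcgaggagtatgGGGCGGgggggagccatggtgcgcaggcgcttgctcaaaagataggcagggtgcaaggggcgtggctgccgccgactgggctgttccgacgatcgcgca
Snhg11: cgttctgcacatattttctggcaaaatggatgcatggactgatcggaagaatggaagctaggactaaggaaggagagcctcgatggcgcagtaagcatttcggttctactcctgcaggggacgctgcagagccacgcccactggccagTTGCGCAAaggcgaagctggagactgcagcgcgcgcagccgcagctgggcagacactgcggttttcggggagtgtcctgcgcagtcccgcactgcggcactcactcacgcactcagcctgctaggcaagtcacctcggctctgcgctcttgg

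The capitals in the Slc5a7 promoter are the TATA box letters TATAAA, at -187 to -182 from the start, which 13.6% of 32851 promoters of the same length hold. In the Syp promoter they are a pair of GC boxes, GGGCGG, found in 35.7% of promoters, and in the Snhg11 promoter the C/EBP palindrome TTGCGCAA, found in 0.183%. Both strands were searched. Also searched, and in none of these 4 windows, were the left part, the right part and the core of the RE1 element, which the neuronal repressor REST binds, the PPAR direct repeat, the palindromic glucocorticoid element and the cAMP element TGACGTCA. The left part of RE1, TTCAGCACC, is held by 0.371% of promoters and the cAMP element by 1.79%, and the other 4 by 0.0396% to 0.137%. The promoters also differed in CG pairs, with 1 in Slc5a7, 8 in Unc79, 18 in Syp and 21 in Snhg11. A match in letters is a description and not a bound site.

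Signals are log2 intensities after background modelling and quantile normalization of the 12 arrays of a tissue, and differences are HFD minus SBD with the standard error (SE) of the fit, n = 6 arrays per diet. The number of arrays limits the precision. The arrays differed in brightness, measured as the 75th percentile of the raw signal over its median: in every fat tissue the 4 dimmest arrays were HFD replicates 3 to 6, at 1.34 to 1.72, against 1.96 to 2.68 on HFD replicates 1 and 2 and 1.70 to 2.49 on the SBD arrays. Differences of the members are therefore also given for HFD replicates 1 and 2 alone. Marker genes were strong in the labelled tissues: 7 adipocyte genes averaged 11.26 to 12.63 in the 12 fat groups, and 7.07 on the HFD and 7.13 on the SBD in liver, while 8 liver genes averaged 13.04 on the HFD and 13.20 on the SBD in liver. Skeletal muscle transcripts were also strong in brown fat (13.09 on the HFD, 13.34 on the SBD) and uneven in perirenal fat (10.18 to 13.55 on the HFD, 9.59 to 14.60 on the SBD). Lymphocyte genes were high in mesenteric fat (10.39 on the HFD, 10.42 on the SBD) and subcutaneous fat (9.05 on the HFD, 9.63 on the SBD), and exocrine pancreas genes were near the top of the scale in mesenteric fat.

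**Figure D1:**
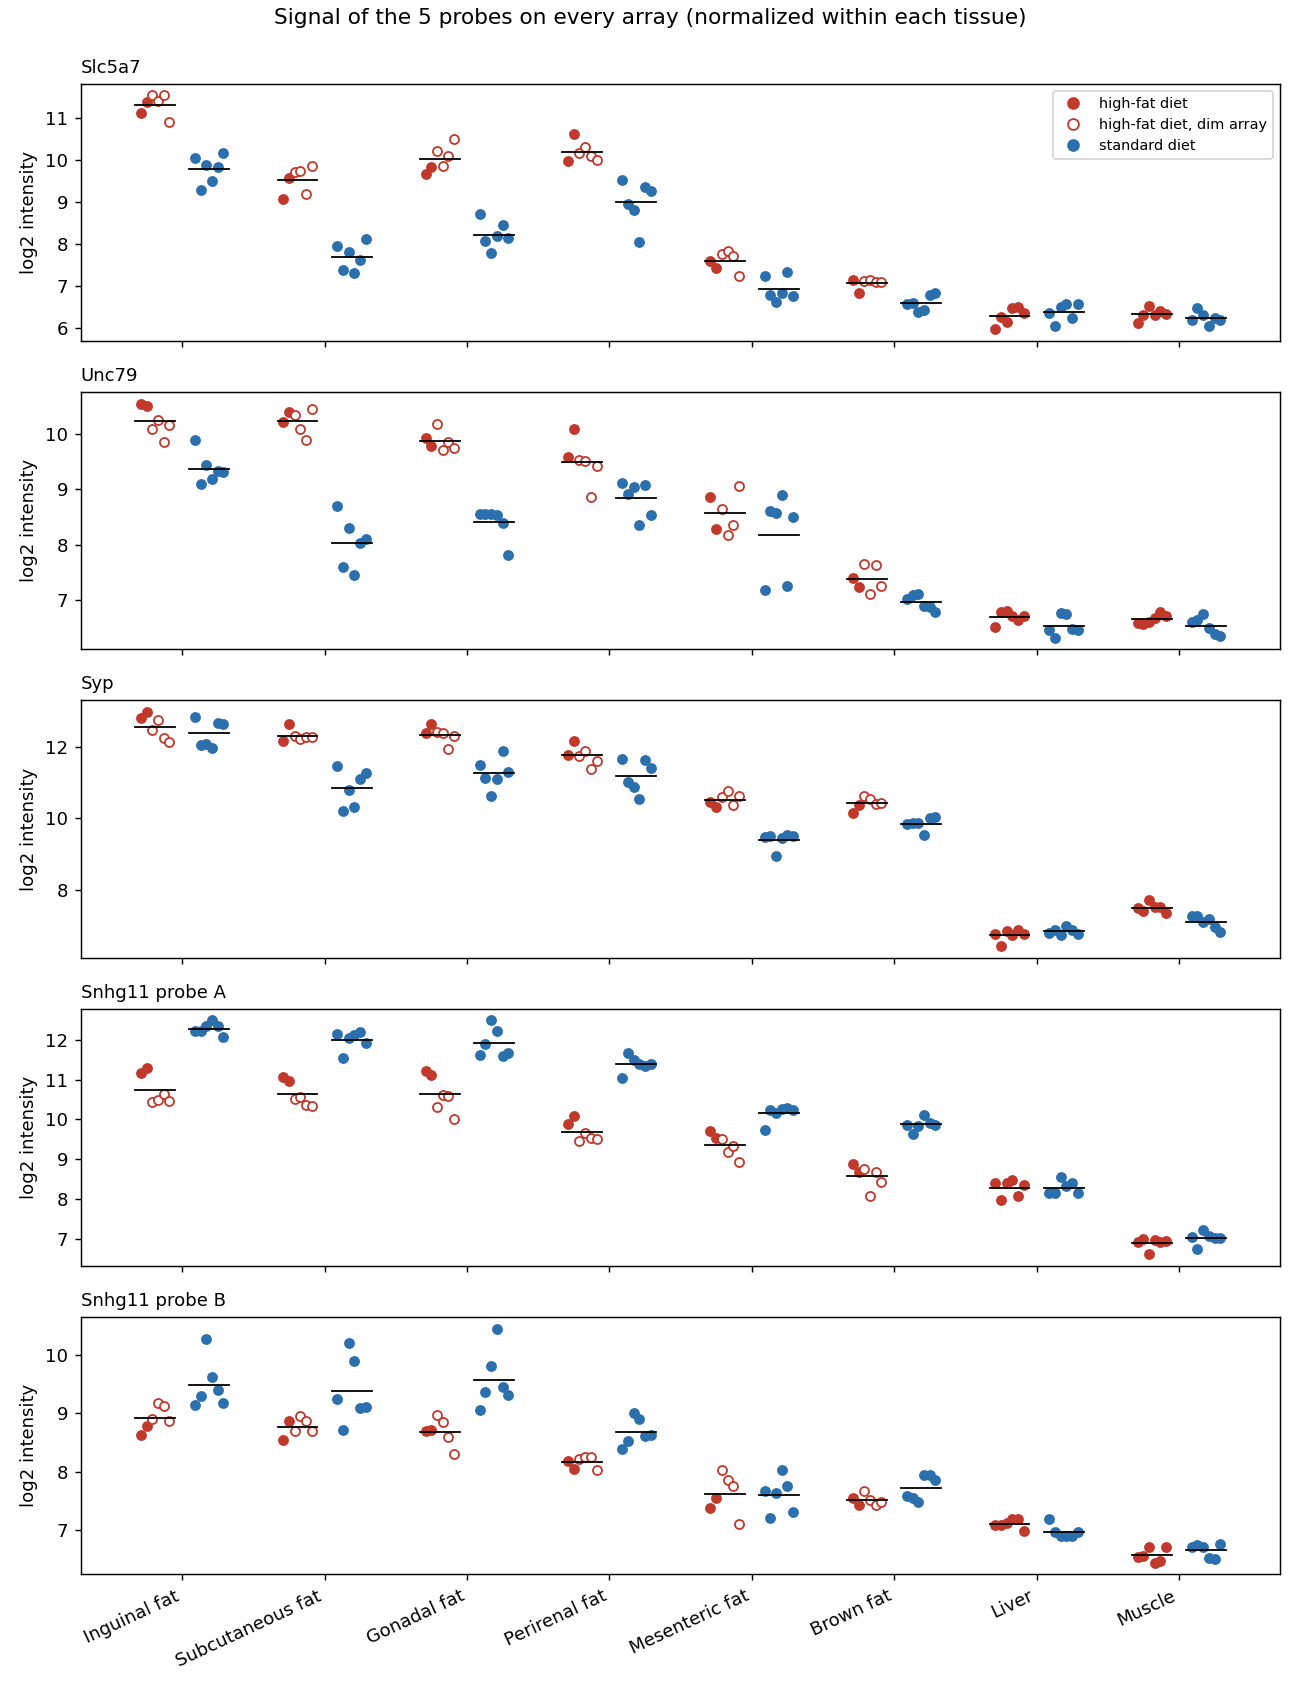
Log2 intensity of the 5 probes on every array, by tissue, with HFD arrays left of SBD arrays; open points are the 4 dim HFD arrays of a fat tissue and lines are group means. Slc5a7, Unc79 and Syp lie higher on the HFD in fat, with the groups of Slc5a7 apart in 5 of 6 fat tissues, while the groups of Snhg11 probe A are apart in the other direction in 6 of 6.

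Slc5a7, the choline transporter, was higher on the HFD in all 6 fat tissues, by 1.25 log2 units on average over them. In gonadal fat its signal lay between 9.67 and 10.49 (median 9.98) on the HFD and between 7.78 and 8.72 (median 8.16) on the SBD, a difference of 1.79 ± 0.16 or 3.47-fold. In subcutaneous fat it lay between 9.08 and 9.86 (median 9.64) on the HFD and between 7.31 and 8.12 (median 7.72) on the SBD, a difference of 1.82 ± 0.16 or 3.54-fold. Every HFD array was above every SBD array in both depots. Among all 23316 probes tested, such a complete separation upward was seen for 2.78% in gonadal, 3.16% in subcutaneous, 4.55% in inguinal, 6.14% in perirenal, 1.93% in brown and 0.480% in mesenteric fat. Separation chose these genes, so nothing is read from the comparison.

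In inguinal fat, where the Slc5a7 probe was brightest on both diets, the values were 10.90 to 11.53 (median 11.38) on the HFD and 9.29 to 10.17 (median 9.86) on the SBD, a difference of 1.52 ± 0.14. Perirenal fat gave 9.97 to 10.62 (median 10.13) on the HFD and 8.05 to 9.52 (median 9.12) on the SBD, a difference of 1.20 ± 0.20. In both depots the groups were again fully apart. Brown fat showed 6.84 to 7.16 (median 7.11) on the HFD and 6.38 to 6.84 (median 6.58) on the SBD. This difference of 0.48 ± 0.09 also left the groups apart, by less than the second decimal, but the probe stood at only the 48.5 percentile of all probes there, below the filter on dim probes. In mesenteric fat the values were 7.25 to 7.83 (median 7.66) on the HFD and 6.63 to 7.34 (median 6.82) on the SBD, a difference of 0.67 ± 0.14, and 1 HFD array fell inside the SBD range. Slc5a7 thus passed the filter in 5 of the 6 fat tissues. HFD replicates 1 and 2 alone gave differences from 0.39 in brown to 1.63 in subcutaneous fat.

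Unc79, the NALCN complex subunit, was higher on the HFD in all 6 fat tissues on average, by a mean of 1.00, with a wide span between depots. Subcutaneous fat showed the most: 9.90 to 10.46 (median 10.27) on the HFD and 7.45 to 8.70 (median 8.07) on the SBD, a difference of 2.20 ± 0.17 or 4.60-fold. Gonadal fat followed, with 9.72 to 10.19 (median 9.82) on the HFD and 7.82 to 8.56 (median 8.55) on the SBD, a difference of 1.47 ± 0.13. Groups did not overlap in either, nor in brown fat, where values were 7.10 to 7.65 (median 7.33) on the HFD and 6.78 to 7.10 (median 6.96) on the SBD, a difference of 0.42 ± 0.10; the lowest HFD and the highest SBD array there were equal to 2 decimals. In inguinal fat the range was 9.86 to 10.55 (median 10.21) on the HFD and 9.10 to 9.89 (median 9.32) on the SBD, a difference of 0.86 ± 0.13. Perirenal fat gave 8.87 to 10.09 (median 9.52) on the HFD and 8.36 to 9.11 (median 8.98) on the SBD, a difference of 0.66 ± 0.18. In these 2 depots 5 of 6 HFD arrays were above every SBD array.

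Mesenteric fat was the exception for Unc79. Its HFD values lay between 8.17 and 9.07 (median 8.50), and its SBD values between 7.19 and 8.90 (median 8.54), so the groups overlapped and the difference was 0.40 ± 0.29. The whole gap came from SBD replicates 1 and 5, at 7.19 and 7.25, while the other 4 SBD arrays lay between 8.50 and 8.90. The same 2 arrays, which were the brightest of the SBD arrays there at ratios of 2.42 and 2.49, were lowest for the mean of 9 exocrine pancreas genes, at 6.94 and 13.91, against 15.03 to 15.71 on the HFD and 15.38 to 15.52 on the other SBD arrays. The part of pancreatic tissue or of brightness in the Unc79 value was not tested. Without both arrays, an alternative chosen after seeing the data, the difference was -0.08. HFD replicates 1 and 2 alone gave Unc79 differences from 0.35 in brown to 2.27 in subcutaneous fat. In perirenal fat they gave 1.00 and HFD replicates 3 to 6 gave 0.49, and in inguinal fat they gave 1.15 and HFD replicates 3 to 6 gave 0.72.

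**Figure D2:**
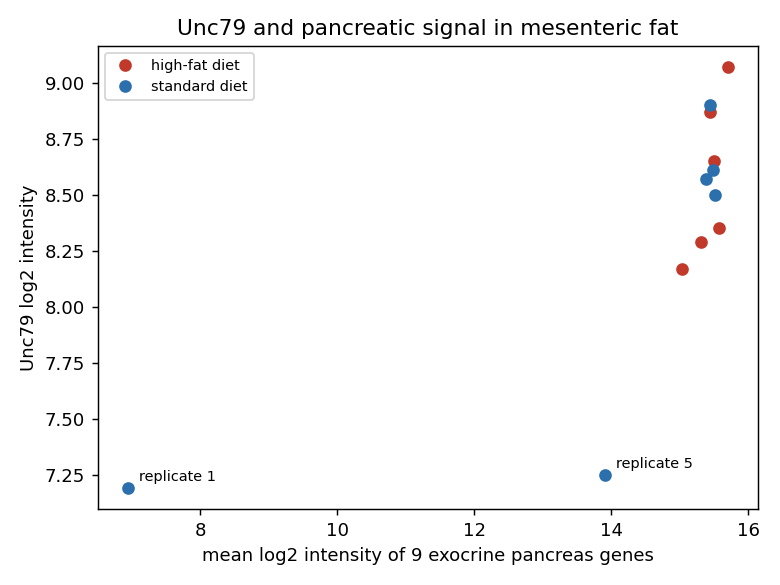
Unc79 log2 intensity of the 12 mesenteric fat arrays (vertical axis) against the mean log2 intensity of 9 exocrine pancreas genes (horizontal axis), HFD in red and SBD in blue. SBD replicates 1 and 5, at 6.94 and 13.91 on the horizontal axis, have the lowest Unc79 values, 7.19 and 7.25.

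Syp, the vesicle protein synaptophysin, was higher on the HFD by a mean of 0.83 over the 6 fat tissues. Subcutaneous fat had 12.17 to 12.64 (median 12.27) on the HFD and 10.20 to 11.46 (median 10.95) on the SBD, a difference of 1.46 ± 0.18 or 2.74-fold. Mesenteric fat had 10.32 to 10.76 (median 10.53) on the HFD and 8.96 to 9.55 (median 9.49) on the SBD, a difference of 1.12 ± 0.11. Gonadal fat had 11.94 to 12.64 (median 12.38) on the HFD and 10.64 to 11.88 (median 11.22) on the SBD, a difference of 1.08 ± 0.17. In these 3 depots and in brown fat, 4 of 6 fat tissues, the groups were fully apart. Brown fat values were 10.15 to 10.63 (median 10.42) on the HFD and 9.54 to 10.04 (median 9.86) on the SBD, a difference of 0.57 ± 0.10. The 2 mesenteric SBD arrays that set Unc79 apart were not low for Syp, at 9.47 and 9.55.

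In perirenal fat Syp lay between 11.39 and 12.16 (median 11.76) on the HFD and between 10.55 and 11.66 (median 11.22) on the SBD, a difference of 0.57 ± 0.18 with overlapping groups. Inguinal fat, the depot with the strongest Syp signal, gave 12.15 to 12.98 (median 12.62) on the HFD and 11.97 to 12.84 (median 12.37) on the SBD, a difference of 0.19 ± 0.17. There 1 of 6 HFD arrays was above the SBD range. This value moved with the dim arrays and the scaling: it was 0.51 on HFD replicates 1 and 2 alone, 0.02 on HFD replicates 3 to 6 alone and -0.22 with median scaling in place of quantile normalization. For HFD replicates 1 and 2 alone the smallest Syp difference was 0.40, in brown fat, and the largest 1.55, in subcutaneous fat.

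Snhg11, the noncoding RNA, ran the other way. Probe A was lower on the HFD in all 6 fat tissues with no overlap in any, by a mean of -1.33 log2 units. Perirenal fat had 9.46 to 10.08 (median 9.60) on the HFD and 11.04 to 11.67 (median 11.40) on the SBD, a difference of -1.70 ± 0.12, or 3.25-fold lower. Inguinal fat had 10.44 to 11.28 (median 10.57) on the HFD and 12.07 to 12.49 (median 12.28) on the SBD, a difference of -1.53 ± 0.14. Subcutaneous fat had 10.34 to 11.06 (median 10.54) on the HFD and 11.55 to 12.19 (median 12.08) on the SBD, a difference of -1.36 ± 0.14. Complete separation downward was seen for 5.13% of all tested probes in perirenal, 4.24% in inguinal, 3.87% in subcutaneous, 3.13% in brown, 2.99% in gonadal and 1.33% in mesenteric fat, beside which, again, nothing is read from the members.

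Probe A in brown fat lay between 8.07 and 8.88 (median 8.68) on the HFD and between 9.63 and 10.11 (median 9.87) on the SBD, a difference of -1.29 ± 0.12. Gonadal fat gave 10.00 to 11.21 (median 10.60) on the HFD and 11.60 to 12.49 (median 11.78) on the SBD, a difference of -1.28 ± 0.20. Mesenteric fat gave 8.92 to 9.72 (median 9.42) on the HFD and 9.74 to 10.29 (median 10.23) on the SBD, a difference of -0.79 ± 0.13, and there the groups were separated by the least. On probe A the dim arrays gave the larger differences in every fat tissue: HFD replicates 3 to 6 alone gave -1.85 to -0.92 and HFD replicates 1 and 2 alone -1.41 to -0.52. Over the 72 fat arrays, after subtracting each group's mean, its signal had a Pearson r of 0.607 with array brightness, while the other 4 probes had r between -0.0954 and 0.199. The part of array brightness in the size of the probe A difference was not tested.

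Probe B of Snhg11 showed smaller differences, with a mean of -0.46 over the 6 fat tissues. Gonadal fat had 8.30 to 8.97 (median 8.70) on the HFD and 9.06 to 10.45 (median 9.41) on the SBD, a difference of -0.89 ± 0.19. Perirenal fat had 8.02 to 8.25 (median 8.21) on the HFD and 8.39 to 9.00 (median 8.61) on the SBD, a difference of -0.51 ± 0.10. Groups were apart in these 2 depots and overlapped in the other 4, with differences of -0.61 in subcutaneous, -0.57 in inguinal, -0.21 in brown and 0.02 in mesenteric fat. The difference on HFD replicates 1 and 2 alone was -0.76 for probe A and -0.87 for probe B in gonadal fat, and -0.52 for probe A and -0.14 for probe B in mesenteric fat. The difference between the probes was not tested. Both are assigned to the same RefSeq transcript, and their positions in it were not used here.

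**Figure D3:**
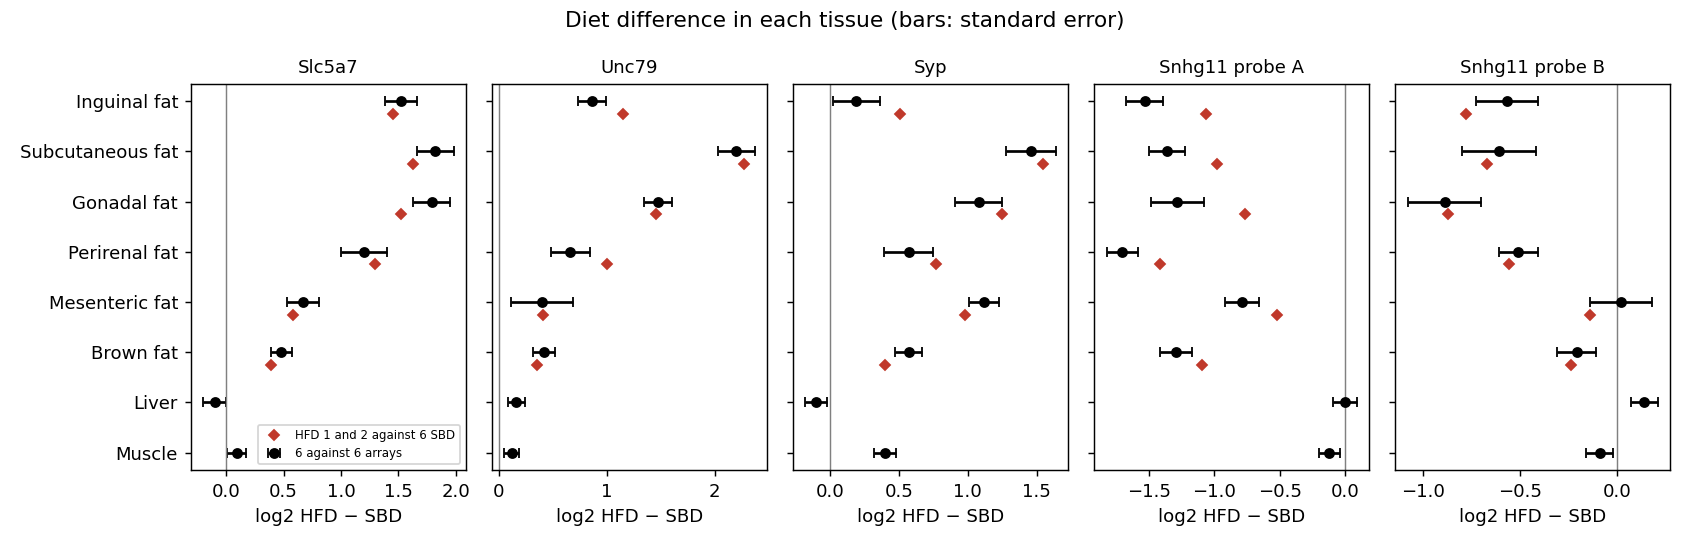
Diet difference (log2, HFD minus SBD) of the 5 probes in 8 tissues; black points are 6 against 6 arrays with bars of 1 standard error, and red diamonds are HFD replicates 1 and 2 against the 6 SBD arrays. Slc5a7 has its largest differences in subcutaneous (1.82) and gonadal fat (1.79) and Snhg11 probe A its largest in perirenal fat (-1.70), while the liver values of Syp (-0.10) and Snhg11 probe A (0.00) are near 0.

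Liver and skeletal muscle took no part in choosing the genes, and there the diet contrast was tested with limma over 23316 probes per tissue. In liver none of the 4 member probes that passed the filter was called at an adjusted p under 0.05, against 1.07% of all probes, and 1 had an unadjusted p under 0.05. Unc79 was at 6.51 to 6.80 (median 6.72) on the HFD and 6.32 to 6.76 (median 6.47) on the SBD, a difference of 0.16 ± 0.08 (limma adjusted p = 0.566). Syp was at 6.43 to 6.87 (median 6.76) on the HFD and 6.75 to 6.99 (median 6.82) on the SBD, a difference of -0.10 ± 0.08 (limma adjusted p = 0.764). Both ranges overlapped. Snhg11 probe A was at 7.98 to 8.48 (median 8.37) on the HFD and 8.15 to 8.55 (median 8.24) on the SBD, a difference of 0.00 ± 0.09 (limma adjusted p = 0.997). Probe B differed by 0.14 ± 0.07 (limma adjusted p = 0.481), with 6.99 to 7.18 on the HFD and 6.90 to 7.18 on the SBD. The Slc5a7 probe stood at the 26.5 percentile in liver and the 28.8 percentile in muscle, under the filter, and was not tested.

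In skeletal muscle Syp came nearest to the threshold without passing it. Its values were 7.34 to 7.73 (median 7.51) on the HFD and 6.83 to 7.27 (median 7.14) on the SBD, a difference of 0.40 ± 0.08 or 1.32-fold (limma adjusted p = 0.0563), and all 6 HFD arrays were above all 6 SBD arrays. Such separation upward was seen for 0.476% of probes in muscle, and 0.112% of probes were called. Over the 21 settings run, the limma adjusted p ranged from 0.0278 to 0.156, passing the threshold in 1 of them, and the difference from 0.30 to 0.66. Unc79 in muscle was at 6.57 to 6.78 (median 6.65) on the HFD and 6.35 to 6.75 (median 6.55) on the SBD, a difference of 0.12 ± 0.07 (limma adjusted p = 0.673). Snhg11 probe A differed by -0.12 ± 0.08 (limma adjusted p = 0.703) and probe B by -0.09 ± 0.07 (limma adjusted p = 0.765). None of the 4 probes tested was called in muscle, and 1, Syp, had an unadjusted p under 0.05. Adipocyte genes in muscle averaged 9.17 ± 0.28 on the HFD and 8.82 ± 0.31 on the SBD (SD, n = 6 each). Of these Lep rose by 1.92 on the scale of the muscle arrays alone (limma adjusted p = 0.000234), and no other adipocyte gene tested there was called. The part of adipocyte tissue in the Syp value was not tested.

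The diet difference in muscle was also set against that in liver, on the 96 arrays normalized together. For Syp the muscle difference exceeded the liver one by 0.85 ± 0.24 (limma adjusted p = 0.0587). No member probe passed this test, and 2 of the 4 tested, Syp and Snhg11 probe B, had an unadjusted p under 0.05. Over all 27107 probes 312 passed. The share of all probes at an unadjusted p under 0.05 is not given here for liver, muscle or this comparison. Nothing is therefore read from those counts of member probes.

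Levels across tissues were compared on the scale of the 96 arrays normalized together, each probe with itself only. Slc5a7 was highest in inguinal fat on both diets, at 10.63 ± 0.25 on the HFD and 9.15 ± 0.31 on the SBD (SD, n = 6 each). On the HFD inguinal fat was above all other tissues without overlap, then came perirenal (9.60 ± 0.23), gonadal (9.36 ± 0.28) and subcutaneous fat (8.96 ± 0.30), whose neighbouring ranges overlapped. Mesenteric fat (7.55 ± 0.21) was set off from those above and below it, and brown fat (7.08 ± 0.12), muscle (6.61 ± 0.19) and liver (6.47 ± 0.25) followed with overlapping neighbours. On the SBD every neighbouring pair in the order overlapped, and brown fat (6.60 ± 0.19) lay with liver (6.60 ± 0.27) and muscle (6.49 ± 0.21) at the bottom.

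Unc79 was highest in subcutaneous and inguinal fat on the HFD (9.65 ± 0.20 and 9.58 ± 0.25, overlapping), while on the SBD inguinal fat led (8.77 ± 0.25) and subcutaneous fat was the lowest of the white depots (7.69 ± 0.37). It was low in brown fat (7.41 ± 0.25 on the HFD, 6.96 ± 0.13 on the SBD), muscle (7.13 ± 0.14 on the HFD, 6.92 ± 0.27 on the SBD) and liver (7.07 ± 0.19 on the HFD, 6.81 ± 0.29 on the SBD), and these 3 did not separate. Syp was highest in inguinal fat (11.94 ± 0.35 on the HFD, 11.74 ± 0.41 on the SBD). On the SBD this was above every other tissue without overlap, while on the HFD subcutaneous (11.80 ± 0.18), gonadal (11.69 ± 0.24) and perirenal fat (11.17 ± 0.26) overlapped with it. All fat tissues were above muscle (8.62 ± 0.17 on the HFD, 7.96 ± 0.34 on the SBD) and liver (7.15 ± 0.28 on the HFD, 7.35 ± 0.19 on the SBD). Slc5a7, Unc79 and Syp were lower in muscle than in perirenal fat on both diets. In brown fat the ranges of Slc5a7 and Unc79 overlapped those of muscle on both diets. The part of muscle tissue in the values of either depot was not tested.

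Snhg11 probe A had its highest level in inguinal fat too, at 10.07 ± 0.38 on the HFD and 11.64 ± 0.16 on the SBD, overlapping with subcutaneous fat (10.04 ± 0.31 on the HFD, 11.46 ± 0.25 on the SBD). Muscle was lowest and set off on both diets (7.56 ± 0.25 on the HFD, 7.81 ± 0.29 on the SBD). Liver held 9.53 ± 0.22 on the HFD and 9.53 ± 0.18 on the SBD. On the SBD all 6 fat means of probe A were above the liver mean, and on the HFD the liver mean was above those of mesenteric (9.35 ± 0.31), perirenal (9.12 ± 0.23) and brown fat (8.65 ± 0.29). Probe B differed in order on the SBD. Gonadal fat was highest (8.94 ± 0.46), and the liver mean (7.62 ± 0.24) was above that of mesenteric fat (7.55 ± 0.29), with overlap.

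**Figure D4:**
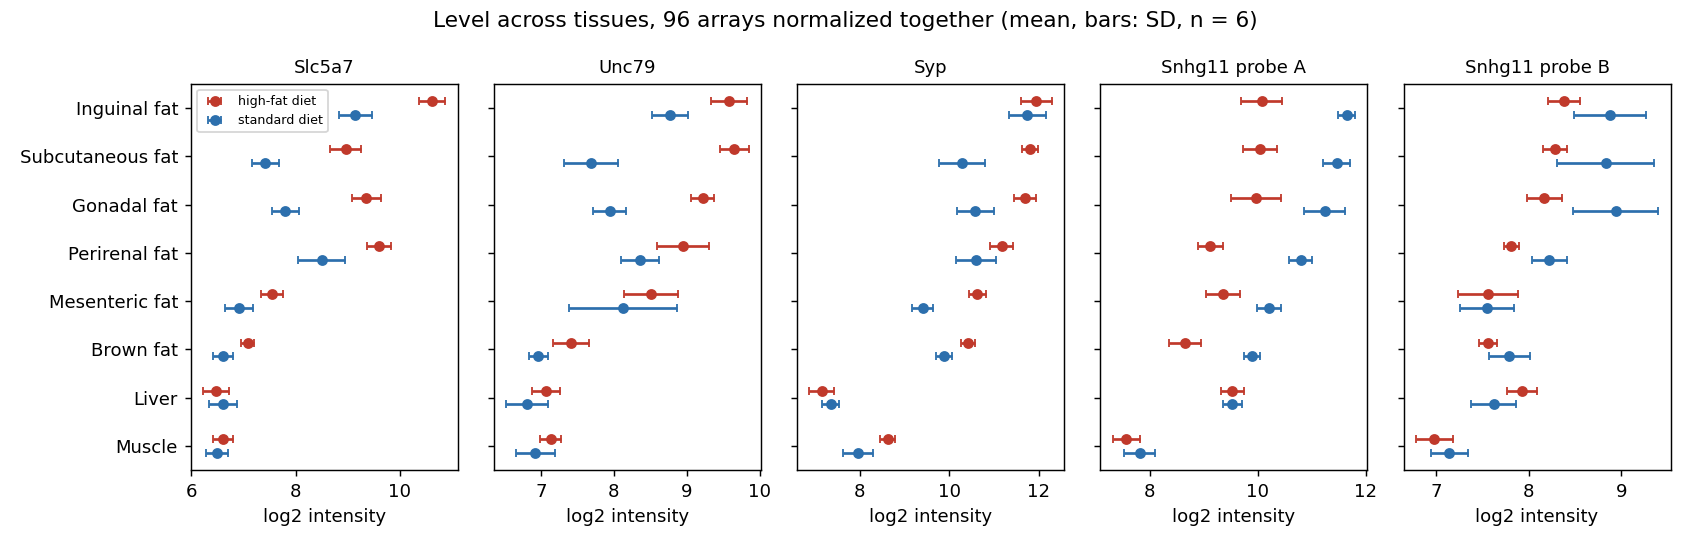
Mean log2 intensity of the 5 probes in 8 tissues after normalizing 96 arrays together, HFD in red above SBD in blue, with bars of 1 SD over 6 arrays. Inguinal fat is highest for Slc5a7 (10.63 on the HFD, 9.15 on the SBD) and Syp (11.94 on the HFD, 11.74 on the SBD), and muscle is lowest for Snhg11 probe A (7.56 on the HFD, 7.81 on the SBD).

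Liver and muscle on the SBD, neither used in choosing the genes, were compared with limma, where 59.1% of 26019 probes were called, 29.6% higher and 29.5% lower in liver. Snhg11 probe A was higher in liver by 1.73 ± 0.16, or 3.31-fold (limma adjusted p = 3.39e-17), and probe B by 0.48 ± 0.15 (limma adjusted p = 0.00451). Syp was lower in liver, with a difference of -0.61 ± 0.17 (limma adjusted p = 0.00142), and Unc79 differed by -0.11 ± 0.18 (limma adjusted p = 0.597). Of the 4 member probes tested, 3 were called. With median scaling the Syp difference of -0.37 (limma adjusted p = 0.381) and the probe B difference of 0.24 (limma adjusted p = 0.411) no longer passed.

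As a description, the 4 genes were set against each other. Over the 16 tissue and diet means, which share the diet contrast the genes were chosen for, Pearson r was 0.919 for Slc5a7 with Unc79, 0.841 for Slc5a7 with Syp, 0.864 for Unc79 with Syp and 0.915 for the 2 Snhg11 probes. Within groups, over 72 fat arrays with each group mean subtracted, Slc5a7 and Syp still had r = 0.594 and Unc79 and Syp 0.321, while Slc5a7 and Unc79 had 0.0401. The points share arrays, brightness and normalization.

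Among 14113 genes the patterns over the 16 means most like that of Slc5a7 were Tuba3a (r = 0.961), Cyb5r2 (0.959), Foxm1 (0.955), Dcbld2 (0.954) and Sparc (0.954). For Unc79 they were Calhm5, Lhfpl2 and Bcar3 (0.947 each), Vhl (0.946) and Pqlc3 (0.944), and for Syp Myo1c (0.978), Spata6 (0.976), Stc1, Gpatch2l and Csgalnact1 (0.971 each). Snhg11 probe A was most like Atraid (0.947), Stambp (0.944), Vwa5b2 (0.934), Klhl2 and Zgpat (0.920 each). Within groups, over the 72 fat arrays, the leading genes were Fgf13 for Slc5a7 (r = 0.698), Pcbd1 for Unc79 (0.746), Pcdh1 for Syp (0.786) and Glce for Snhg11 (0.720). Spry4, an inhibitor of receptor tyrosine kinase signalling, was in the leading 5 for both Slc5a7 (0.654) and Syp (0.719).

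Genes of the same pathways that are no members were then read from lists, in the 6 fat tissues together, where 15.2% of all probe tests were called with limma at an adjusted p under 0.05, 7.27% higher and 7.90% lower, and the median difference of all probes was -0.03 to -0.02 per tissue. By tissue 24.4% of probes were called in perirenal, 22.5% in inguinal, 18.7% in subcutaneous, 13.6% in brown, 11.3% in gonadal and 0.506% in mesenteric fat. Without the 4 dim arrays, with fewer samples, only 1.25% of all probe tests in fat were called and 13.3% had an unadjusted p under 0.05, against 31.5% with them; the counts of each list in that setting are to be read beside these shares. Of 28 choline and acetylcholine genes on the array, 13 to 15 passed the filter per tissue; in 81 tests 3 rose and 8 fell (13.6%), with medians from -0.20 to -0.05. Chkb, a choline kinase, fell in subcutaneous fat (11.82 ± 0.14 on the HFD, 12.34 ± 0.15 on the SBD; -0.53, limma adjusted p = 0.00168). Chrm3, a muscarinic acetylcholine receptor, rose in brown fat (7.40 ± 0.33 on the HFD, 6.77 ± 0.21 on the SBD; 0.63, limma adjusted p = 0.00924). Slc44a1, a choline transporter-like protein, fell in subcutaneous fat by 0.38 (limma adjusted p = 0.00879). Chat, the enzyme that makes acetylcholine, passed the filter in brown fat alone, at 6.84 ± 0.19 on the HFD and 6.98 ± 0.11 on the SBD (-0.15, limma adjusted p = 0.302). Slc18a3, the vesicular acetylcholine transporter, passed it in brown and mesenteric fat, with differences of 0.21 (limma adjusted p = 0.172) and 0.27 (limma adjusted p = 0.223). Without the 4 dim arrays 0 of the 81 tests were called by limma and 6 had an unadjusted p under 0.05.

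Of the NALCN complex, Unc80, which binds Unc79, was the only other gene above the filter in fat. Its differences ran from -0.09 in brown to 0.01 in mesenteric fat, and in subcutaneous fat, where Unc79 differed most, it was at 7.30 ± 0.15 on the HFD and 7.33 ± 0.10 on the SBD (-0.04, limma adjusted p = 0.783). None of its 6 tests was called by limma and 0 had an unadjusted p under 0.05.

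Of 33 synaptic vesicle genes other than Syp, 18 to 23 passed the filter; in 121 tests 9 rose and 9 fell (14.9%), with medians from -0.09 to 0.06. Sypl, a synaptophysin-like protein found widely outside neurons, rose in inguinal fat (13.15 ± 0.10 on the HFD, 12.64 ± 0.16 on the SBD; 0.51, limma adjusted p = 0.000834). Syngr1, synaptogyrin, of the same family of vesicle proteins, fell in subcutaneous fat (8.31 ± 0.15 on the HFD, 9.13 ± 0.10 on the SBD; -0.82, limma adjusted p = 3e-05). Syn1, synapsin, rose in perirenal fat by 0.62 (limma adjusted p = 0.00139), and Snap23, the SNAP-25 relative of non-neuronal cells, rose in 4 of the 6 fat tissues. Without the dim arrays 0 rose and 1 fell, and 21 had an unadjusted p under 0.05.

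Of 5 small nucleolar RNA host genes other than Snhg11 on the array, 3 passed the filter in each fat tissue; in 18 tests 0 rose and 6 fell (33.3%), with 13 at an unadjusted p under 0.05. Snhg10 fell in 4 fat tissues, in gonadal fat to 9.61 ± 0.13 on the HFD, against 10.31 ± 0.27 on the SBD (-0.70, limma adjusted p = 0.00149). Snhg16 fell in subcutaneous fat by 0.44 (limma adjusted p = 0.00649). Without the dim arrays 0 were called by limma and 7 had an unadjusted p under 0.05.

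Of 35 pan-neuronal genes on the array 20 to 25 passed the filter; in 137 tests 2 rose and 9 fell (8.03%), with medians from -0.10 to 0.05. Celf4, an RNA-binding protein of neurons, rose in perirenal fat by 0.45 (limma adjusted p = 0.0146), and Kif1a, the motor that carries synaptic vesicle precursors, rose in gonadal fat by 0.39 (limma adjusted p = 0.0407). Stmn4, a tubulin-binding protein of neurons, fell in perirenal fat by 0.52 (limma adjusted p = 0.00137), as did Tubb3, the neuronal tubulin, by 0.33 (limma adjusted p = 0.0259). Without the dim arrays 0 were called by limma and 14 had an unadjusted p under 0.05.

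Of 28 genes of sympathetic nerves, neuropeptides and serotonin synthesis on the array, 9 to 16 passed the filter per fat tissue. Th and Dbh, both sympathetic nerve genes of this list, passed it in no fat tissue. In 63 tests 10 rose and 6 fell (25.4%). Tph2, the serotonin-making enzyme of neurons, rose in all 6 fat tissues, in inguinal fat to 12.50 ± 0.47 on the HFD, against 8.50 ± 0.19 on the SBD (4.00, limma adjusted p = 1.86e-09), and accounted for 6 of the 10. Npy, a peptide of sympathetic neurons, rose in perirenal fat by 1.00 (7.52 ± 0.29 on the HFD, 6.52 ± 0.12 on the SBD; limma adjusted p = 6.49e-05). It passed the filter in no other fat tissue. The filter used the mean over both diets, so a probe dim on the SBD could pass through its HFD level. Ntrk3, the neurotrophin-3 receptor, fell in 4 fat tissues. Without the dim arrays 6 rose and 0 fell, with 13 at an unadjusted p under 0.05.

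Schwann cell and myelin genes rose in 7 and fell in 19 of 66 tests (39.4%). Sox10, a transcription factor of Schwann cells, fell in 2 fat tissues, in inguinal fat to 7.99 ± 0.23 on the HFD, against 9.08 ± 0.54 on the SBD (-1.09, limma adjusted p = 0.00162). S100b rose in 2 fat tissues, in brown fat by 1.44 (limma adjusted p = 0.000144), and Gldn rose in 1 and fell in 3. Egr2, a factor of myelination that macrophages also express, rose in 4 fat tissues, in perirenal fat by 1.72 (limma adjusted p = 7.8e-06). Without the dim arrays 2 rose and 0 fell, with 20 at an unadjusted p under 0.05.

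**Figure D5:**
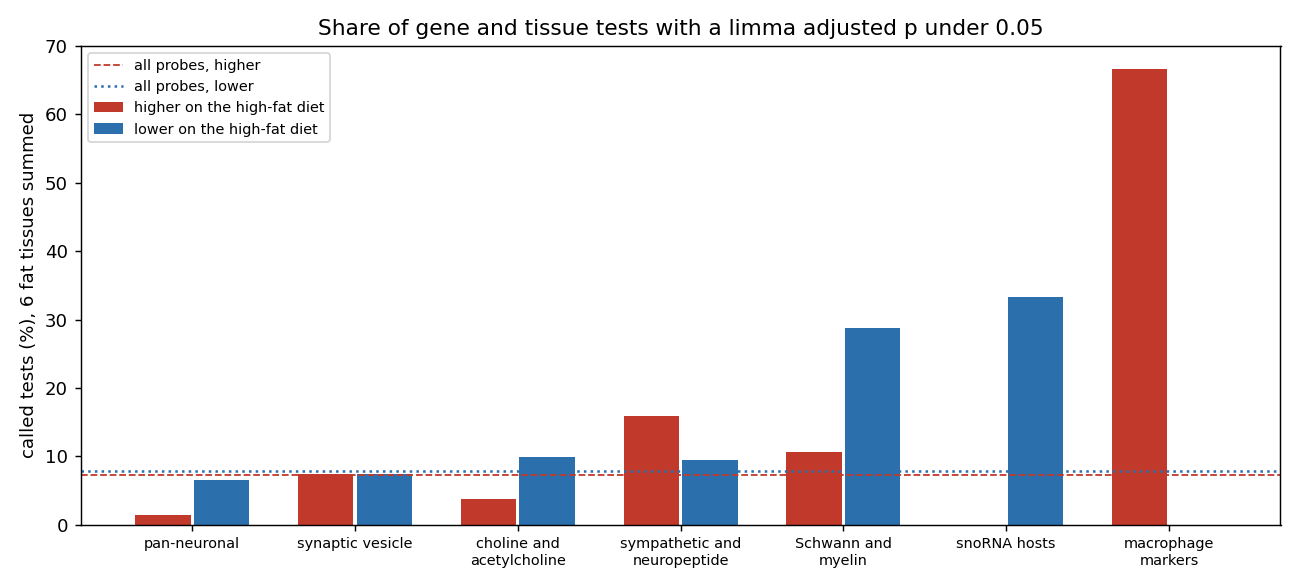
Share of gene and tissue tests called by limma at an adjusted p under 0.05, summed over the 6 fat tissues, for genes higher (red) or lower (blue) on the HFD in 7 lists without the 4 members; dashed and dotted lines are the shares over all probes. Pan-neuronal genes were called in 8.03% of tests, macrophage markers in 66.7% and all probes in 15.2%.

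Markers of other cells moved beside the members in fat. Macrophage markers rose in 36 and fell in 0 of 54 tests (66.7%), and without the dim arrays 10 rose (18.5%, against 1.25% of all probes). In perirenal fat 11 of them averaged 10.97 ± 0.25 on the HFD and 9.40 ± 0.33 on the SBD (SD, n = 6 each). In subcutaneous fat, where Unc79 and Slc5a7 differed most, 6 of 7 lymphocyte markers tested fell, and their mean was 9.05 ± 0.17 on the HFD and 9.63 ± 0.38 on the SBD. Without the dim arrays 0 of the 7 were called by limma and 2 had an unadjusted p under 0.05. Their part in the differences of the 4 genes was not tested.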

How the data were processed

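Labelled cRNA of 96 samples was hybridized to Illumina Mouse-6 BeadChips, per the labels. The authors deposited non-normalized signal intensity per probe, per the file headers, with no detection p-values, and a table of log2 values that equalled, to within 0.00191, a quantile normalization of all arrays without background correction. The scanner software is not given in the sources used here. From the intensities, background was modelled within the 12 arrays of a tissue (limma normexp, offset 50), log2 taken and quantile normalization applied. Probes with a mean above the median of all probes were tested with limma 3.58.1 in R 4.3.3, two-sided, HFD minus SBD, with Benjamini-Hochberg adjustment over 23316 probes; the fit was tested on simulated data. Levels and the liver and muscle comparison used 96 arrays normalized together; the test of muscle against liver diet differences was added later.

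The members and lists were chosen with earlier results of these data known. Named genes are all members, any choline or NALCN gene above the filter, and up to 6 called genes with the smallest p of other lists. Also named are the 5 genes most similar to each member, and Th, Dbh, Lep, Cela1 and Serpina1a. Not all are printed. A list gene was read by its brightest probe. Names were updated by Entrez number to a RefSeq table (GRCm38.p6); 29921 of 46632 probes matched. The labels do not say whether equal replicate numbers pair the samples, and the main fits used no pairing. In no tissue did more than 4 of 6 same-numbered pairs have a correlation of deviations over 0.1. This count cannot exclude a pairing, and the correlations ran from 0.0207 to 0.299 in liver and from 0.0424 to 0.322 in muscle. Alternatives were no background correction, the deposited values, median scaling, joint normalization, no filter, 1 probe a gene, the replicate block, a brightness covariate, a dim-array term in the model, bright arrays without the dim ones, and each array left out in turn.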

Additional observations from a re-analysis of the deposited data

Results flagged for a closer look

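In 8 of 80 groups of 6 arrays, 1 array stood far from the other 5 for a member probe; chance marks about 1 in 20 groups. Slc5a7 in brown fat was 6.84 on HFD replicate 2 and 7.10 to 7.16 on the other HFD arrays. Syp was 12.64 on HFD replicate 2 of subcutaneous fat and 12.17 to 12.30 on the others, and 6.43 on HFD replicate 2 of liver and 6.74 to 6.87 on the others. Snhg11 probe A was 6.61 on HFD replicate 3 of muscle and 6.91 to 6.99 on the others. Among SBD arrays, Unc79 was 7.82 on gonadal replicate 6 and 8.40 to 8.56 on the others, and Syp was 8.96 on mesenteric replicate 3 and 9.44 to 9.55 on the others. Snhg11 probe A was 9.74 on mesenteric SBD replicate 1, the mesenteric array with the least pancreatic signal, and 10.16 to 10.29 on the others. Snhg11 probe B was 7.18 on liver SBD replicate 1 and 6.90 to 6.97 on the others.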

How the results depend on the processing

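Of the diet differences of the members, by tissue and setting, 748 kept their direction and their size or call, 32 moved by more than the spread between replicates and 15 changed sign; causes were not tested unless stated. The sign changes were those of Syp in inguinal fat (-0.22 with median scaling), Unc79 in mesenteric fat (-0.08 without the 2 SBD arrays), Snhg11 probe B in mesenteric fat (-0.22 with median scaling, -0.14 with dim arrays modelled apart and with bright arrays alone, -0.07 to 0.12 leaving out single arrays, among them -0.06, -0.04, -0.03 and -0.01) and Snhg11 probe A in liver, whose difference is 0.00 and ran from -0.04 to 0.06 leaving out single arrays (0.02, 0.04 and 0.05 among them). The mean difference over the fat tissues moved for Syp (0.44 with median scaling) and Snhg11 probe A (-1.69 with median scaling, -0.97 with dim arrays modelled apart or bright arrays alone). Leaving out single arrays, these means ran from 1.18 to 1.31 for Slc5a7, 0.97 to 1.05 for Unc79, 0.76 to 0.89 for Syp, -1.40 to -1.26 for Snhg11 probe A and -0.52 to -0.38 for probe B. Median scaling shifted the median of all probes in fat to between -0.27 and -0.17, against -0.03 to -0.02 in the values reported.

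The number of probes called depended on the scaling and on the dim arrays. It was 3176 in brown, 2635 in gonadal, 5244 in inguinal, 118 in mesenteric, 5687 in perirenal and 4359 in subcutaneous fat, 250 in liver and 26 in muscle. In the same order median scaling called 99, 117, 366, 3, 1092, 96, 14 and 586, of which 35.4, 30.8, 19.1, 33.3, 41.7, 33.3, 42.9 and 1.71% were higher on the HFD, against 44.7, 51.2, 48.3, 40.7, 50.3, 44.9, 54.8 and 46.2%. Modelling the dim arrays apart called 184, 182, 745, 1, 1456 and 456 in the fat tissues, and the bright arrays alone, with fewer samples, 74, 69, 454, 0, 1038 and 116; for mesenteric fat 949 had an unadjusted limma p under 0.05. Brightness as a covariate called 1662, 1690, 2778 and 41 in brown, gonadal, inguinal and mesenteric fat and 12 in muscle. Mesenteric fat had 192 calls without background correction, 207 from the deposited values and 211 without SBD replicates 1 and 5; liver had 155 from the deposited values and 116 with joint normalization; muscle had 49 with no filter, 16 without background correction and 13 with joint normalization. With the replicate block mesenteric fat had 17 and muscle 96, and Syp in muscle passed (0.40, limma adjusted p = 0.0278), while no other member call changed. Leaving out single arrays gave 1741 to 5128 in brown, 1533 to 3699 in gonadal, 3785 to 6715 in inguinal, 46 to 145 in mesenteric, 4189 to 6665 in perirenal and 2812 to 5642 in subcutaneous fat, 152 to 284 in liver and 14 to 44 in muscle. The largest brown fat count came without HFD replicate 2 and the smallest without HFD replicate 5.

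For liver against muscle, median scaling called 9037 probes in place of 15375, 3640 of them higher in liver in place of 7689; Syp (-0.37, limma adjusted p = 0.381) and Snhg11 probe B (0.24, limma adjusted p = 0.411) did not pass, and each passed in every other setting that tested it. The number of arrays, the lack of detection p-values and the offset of 50 limit what can be said of dim probes such as Slc5a7 in brown fat, liver and muscle.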

Other observations

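Other marker lists gave these limma counts in the 6 fat tissues together, on the scale of each tissue, where 15.2% of all probe tests were called. Adipocyte genes rose in 7 and fell in 9 of 42 tests, and brown fat genes rose in 6 and fell in 8 of 35. Mesothelial genes rose in 0 and fell in 6 of 21, and lymphocyte genes rose in 2 and fell in 7 of 38. Skeletal muscle genes rose in 2 and fell in 3 of 35, liver genes rose in 3 and fell in 0 of 28, and exocrine pancreas genes rose in 4 and fell in 0 of 34. All 3 liver gene rises were of Serpina1a. All 4 pancreas gene rises were of Cela1, which was also strong in liver (12.56 on the HFD, 12.53 on the SBD). Islet and adrenal genes rose in 1 and fell in 3 of 27, and epithelial genes rose in 0 and fell in 2 of 15. Without the 4 dim arrays, where 1.25% of all probe tests were called, 1 adipocyte gene test fell and 0 rose, 1 brown fat test rose and 3 fell, 1 muscle test and 2 exocrine pancreas tests rose, and 0 tests of the lymphocyte, mesothelial, liver, islet and adrenal, and epithelial lists were called by limma, with 6, 5, 2, 1 and 2 at an unadjusted p under 0.05 in that order. Exocrine pancreas genes averaged 7.91 ± 1.16 on the HFD and 7.01 ± 0.06 on the SBD in subcutaneous fat (SD, n = 6 each), with a highest HFD array of 10.08.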
